A study of Rattus norvegicus with 12 samples.

Results

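The growth hormone and IGF axis of the liver was described by 10 genes, Ghr, Jak2, Stat5b, Socs2, Cish, Igf1, Igfals, Igfbp2, Igfbp3 and Igfbp4. All probe sets annotated to exactly 1 of these symbols were used, which gave 13 probe sets of the 15866 tested and 10 genes of the 10411 named ones. Ghr, Igf1 and Igfbp3 each had 2 probe sets. The samples were livers of 12 male Brown Norway rats, an inbred strain, weighing 150 to 170 g. Of these, 4 had received water as the vehicle and 8 a single oral gavage of D-penicillamine, a copper-binding thiol drug, at 150 mg/kg in 1 mL, and the labels give 6 hours as the time of sacrifice for both groups. RNA of each rat was hybridised to its own Affymetrix rat array, and values are log2 after RMA normalization. The series concerns idiosyncratic reactions to this drug, and the only contrast in the labels is treated against vehicle.

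Growth hormone is made in the pituitary and binds its receptor, encoded by Ghr, on hepatocytes. The receptor carries the kinase Jak2, which phosphorylates the transcription factor Stat5b, and Stat5b then activates Igf1, Igfals, Socs2 and Cish in the nucleus. Insulin-like growth factor I is secreted from the liver and circulates mostly in a complex with the products of Igfbp3 and Igfals. SOCS2 and CIS, the products of Socs2 and Cish, act back on the receptor and damp its signal. In male rats the hormone is released in pulses, and STAT5 in the liver is activated after each of them. The hormone state of the individual rats is not given in the sources used here.

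Array medians lay between 6.30 and 6.35, and all arrays came from 1 chip lot and 1 day of scanning. The vehicle arrays took scan positions 1 to 4 and the treated arrays 5 to 12, and treatment and scan position cannot be told apart. In vehicle rat 3 the 3' control signals exceeded the 5' ones by 1.185 on the log2 scale, against 0.43 to 0.605 in the other 11 rats. D-penicillamine rat 4 had the lowest mean correlation with the other arrays (0.991). Most differences and correlations that rest on these rats are given with and without them. Of the hepatocyte markers 9 of 10 were measured, and their mean log2 value lay between 13.1 and 13.3 in vehicle rats and between 13.2 and 13.4 in treated rats. The samples are whole liver, in which fewer cells of a type and less RNA per cell cannot be told apart.

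The DNA that STAT5 binds has the form TTCNNNGAA, where N is any base, and this motif reads the same on both strands. It was searched in the 250 bases before the start of each gene in the RefSeq promoters of the GRCr8 assembly, where 9 of the 10 members matched (all but Socs2). It was found in 1 of the 9, Cish, and in 7.67% of all 33469 promoters. The Cish window held 4 matches that do not overlap, and 2 promoters in all held at least 4. It is shown because Cish was the member that varied most between rats. The window is chr8:116850719-116850968 on the plus strand of GRCr8, 5′ to 3′, with the 4 matches in capitals.
Cish: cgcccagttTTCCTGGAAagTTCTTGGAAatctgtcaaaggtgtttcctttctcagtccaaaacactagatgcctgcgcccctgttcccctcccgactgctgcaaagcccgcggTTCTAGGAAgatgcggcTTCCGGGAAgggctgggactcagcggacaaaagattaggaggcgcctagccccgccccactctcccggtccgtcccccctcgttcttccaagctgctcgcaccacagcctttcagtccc
The matches TTCCTGGAA and TTCTTGGAA begin 241 and 230 bases before the start, and TTCTAGGAA and TTCCGGGAA begin 136 and 119 bases before it. A match describes the letters of the window and does not show that a factor was bound there in these livers.

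No member of the axis passed the threshold after D-penicillamine. In the limma fit over all probe sets, with Benjamini-Hochberg adjustment, 0 of 13 member probe sets and 0 of 15866 probe sets (0%) reached an adjusted p under 0.05, and the members' adjusted p ran from 0.807 to 0.962. At an unadjusted p under 0.05 the count was 0 of 13, against 6.16% of all probe sets (2.68% higher and 3.48% lower in treated rats). Under the alternatives given below, that count of members reached at most 3. The groups overlapped for all 13, whereas they did not overlap for 0.574% of all probe sets. Of the 13 differences 5 were positive and 8 negative, with a median of -0.08 on the log2 scale against -0.0025 over all probe sets. The 95% interval stayed within a 2-fold change in either direction for 12 of the 13, the exception being Cish. In exact two-sided permutation tests over the 495 splits of the 12 rats, whose smallest possible p is 0.00202, unadjusted p-values of the members lay between 0.0808 and 0.739.

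**Figure D1:**
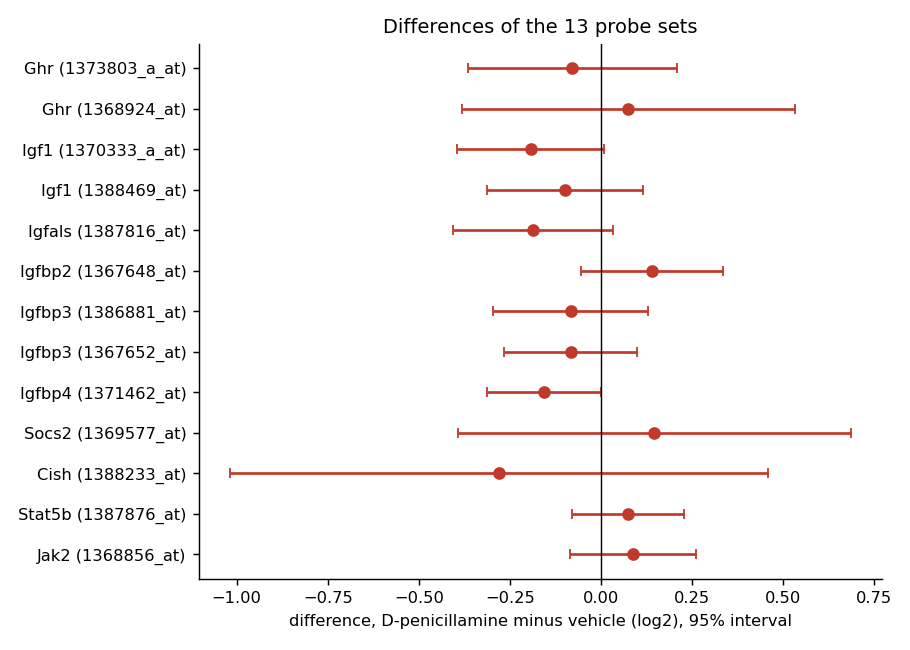
Difference between 8 D-penicillamine and 4 vehicle rats (log2) for each of the 13 probe sets, with the 95% interval of the limma fit. Every interval crosses 0, and those of Cish (-1.02 to 0.46) and Socs2 (-0.39 to 0.69) are the widest.

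The receptor gene Ghr differed little between the groups and gave opposite signs on its probe sets. On the probe set with the higher signal (1373803_a_at) vehicle rats 1 to 4 had 9.77, 9.95, 9.90 and 10.01. The 8 treated rats ran from 9.22 in rat 4 to 10.26 in rat 6, with a median of 9.855, so both the lowest and the highest value were in treated rats. The difference was -0.08 (SE 0.13, 95% interval -0.37 to 0.21, adjusted p = 0.938), and 0.0082 without D-penicillamine rat 4. On the other probe set (1368924_at) vehicle rats had 7.28, 7.41, 6.57 and 7.66, and treated rats ran from 6.57 in rat 4 to 7.72 in rat 6 with a median of 7.40. Rat 3 of the vehicle group and rat 4 of the treated group shared the lowest value there. That probe set differed by 0.08 (SE 0.21, adjusted p = 0.962), and by -0.145 without vehicle rat 3. The deviations of the 2 probe sets from their group means correlated at 0.74 over the 12 rats, or 0.55 without D-penicillamine rat 4.

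The kinase gene Jak2 and the transcription factor gene Stat5b overlapped between groups over most of their range. For Jak2 the vehicle rats lay between 5.02 and 5.34 and the treated rats between 5.05 and 5.53, a difference of 0.09 (SE 0.08, adjusted p = 0.882). Stat5b ran from 7.02 to 7.30 in vehicle rats and from 7.08 to 7.40 in treated rats, and differed by 0.07 (SE 0.07, adjusted p = 0.884). Of the 8 treated rats 6 lay within the vehicle range for Jak2 and 5 for Stat5b. Without vehicle rat 3, which was lowest for both genes, the differences were 0.03 for Jak2 and 0.02 for Stat5b. RMA values carry no detection call, and the means of Jak2 (5.24) and Socs2 (5.86) lay below the median of every array.

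Cish and Socs2, the feedback inhibitors, varied more between rats of the same group than nearly all other probe sets. For Cish vehicle rats 1 to 4 had 6.63, 5.55, 6.78 and 7.26. Treated rats ran from 5.30 in rat 5 to 7.15 in rat 2, with a median of 6.135. Over the 12 rats the values spanned a 3.89-fold range, and 7 of 8 treated rats lay within the vehicle range. The difference was -0.28 (SE 0.35, 95% interval -1.02 to 0.46, adjusted p = 0.908), and it ran from -0.615 without vehicle rat 2 to -0.045 without vehicle rat 4.

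For Socs2 vehicle rats 1 to 4 had 5.93, 5.23, 5.96 and 5.93, so 3 of them lay within 0.03 of each other and rat 2 stood apart. Treated rats ran from 5.19 in rat 4 to 6.67 in rat 6, with a median of 5.985. Rat 7, at 5.26, was also low. The treated values spread to both sides of the vehicle values, with 4 rats above all vehicle rats and 1 below them. The difference was 0.15 (SE 0.25, 95% interval -0.39 to 0.69, adjusted p = 0.938). It turned to -0.031 without vehicle rat 2 and was 0.249 without D-penicillamine rat 4.

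**Figure D2:**
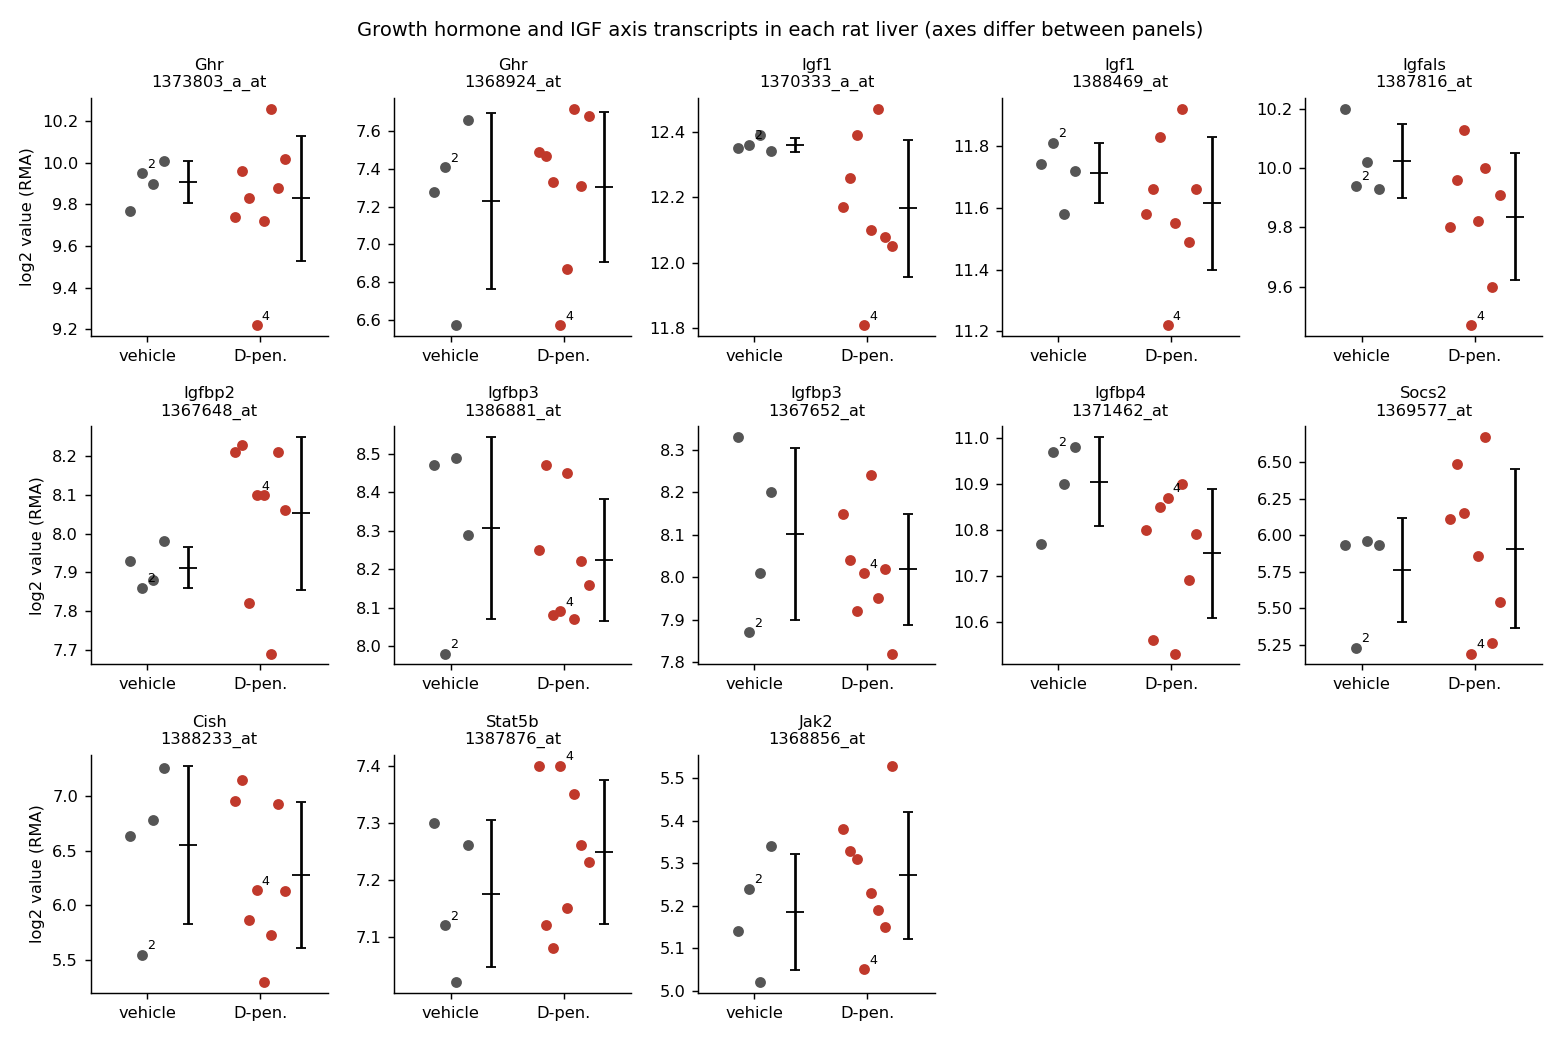
Log2 values of the 13 member probe sets in 4 vehicle rats (grey) and 8 D-penicillamine rats (red), 1 point per rat in the order of rat number, with the group mean and SD beside the points. Vehicle rat 2 and D-penicillamine rat 4 are numbered. Groups overlap in every panel, and D-penicillamine rat 4 is at the bottom for Igf1, Igfals, Ghr and Socs2.

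The SD within groups was 0.68 for Cish, the 15th largest of 15866 probe sets, and 0.50 for Socs2, the 53rd largest. One probe set of Ghr (0.42) also stood above the 99th percentile, and 7 of the 13 members stood above the 90th. The median SD was 0.19 over the members and 0.10 over all probe sets. A wide spread was not particular to the members. On the list compiled as other growth hormone-induced genes, with 1 probe set per gene, the median SD was 0.30. There 15 of 18 genes stood above the 90th percentile and 5 above the 99th. With 1 probe set per gene the members had a median of 0.18, with 5 of 10 above the 90th and 2 above the 99th. Whether growth hormone induced the listed genes in these livers was not tested. The other related lists had lower medians than the members. They were 0.09 for growth hormone receptor signalling, 0.11 for the IGF system, 0.14 for male-biased and 0.12 for female-biased genes. In the same order, 3 of 32, 2 of 16, 2 of 10 and 4 of 12 genes stood above the 90th percentile. Without vehicle rat 3 and D-penicillamine rat 4, 8 members were above the 90th percentile and 2, Cish and Socs2, above the 99th. Among probe sets whose mean was within 0.5 of their own, Cish stood at the 99.97th percentile, Socs2 at the 99.94th and the probe sets of Ghr at 99.4 and 91.8. Only these 4 of the 13 stood above the 90th in that comparison, and the lowest were Igfbp4 at 60.7 and Stat5b at 62.3. These are descriptions of the spread and were not tested.

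**Figure D3:**
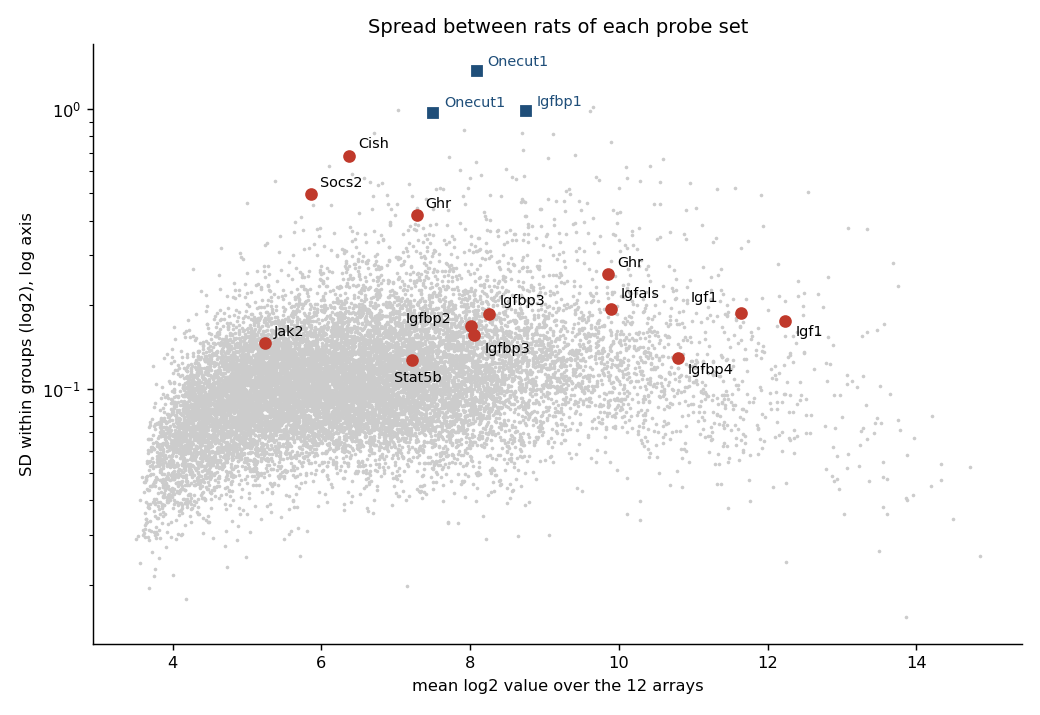
SD within groups (log axis) against mean log2 value for 15866 probe sets (grey), the 13 member probe sets (red circles) and, for comparison, Onecut1 and Igfbp1 (blue squares). Cish and Socs2 lie at the upper edge of the cloud at their level, while Stat5b and Igfbp4 lie inside it.

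The low Socs2 values lay in the same 3 rats as the low values of Onecut1, the gene of a liver transcription factor that growth hormone induces in rat liver. The pair was chosen after its values were seen, so it is given as a description with no p. Its brighter probe set had 6.45 in vehicle rat 2, 6.46 in D-penicillamine rat 4 and 5.87 in D-penicillamine rat 7, and at least 7.37 in the other 9 rats. Socs2 had 5.23, 5.19 and 5.26 in those rats and at least 5.54 in the others. Deviations from the group means correlated at r = 0.82 over 12 rats, with a Spearman's rho of 0.75. On the second probe set of Onecut1 r was 0.87 and rho 0.82. Without the 2 rats farthest from the median of Socs2, D-penicillamine rats 4 and 6, r was 0.88 and 0.91, and without D-penicillamine rat 4 alone it was 0.79 and 0.82. Of all probe sets, 0.378% were at least as far from 0 with Socs2 as the first value and 0.0946% as the second. In Cish the 3 rats did not go together, with 5.55, 6.14 and 6.93.

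Igf1, the main product of the axis, was nearly the same in all vehicle rats on 1 probe set and spread more widely in treated rats, and the groups did not differ past the threshold. On the probe set with the higher signal (1370333_a_at) vehicle rats 1 to 4 had 12.35, 12.36, 12.39 and 12.34. Treated rats ran from 11.81 in rat 4 to 12.47 in rat 6, with a median of 12.135. Of the 8 treated rats 6 lay below all vehicle rats and 1 above them, and rat 3 equalled the highest vehicle rat at 12.39. The difference was -0.19 (SE 0.09, 95% interval -0.40 to 0.0077, adjusted p = 0.807), a ratio of 0.874, and it was -0.14 without D-penicillamine rat 4. The second probe set (1388469_at) had 11.74, 11.81, 11.58 and 11.72 in vehicle rats and 11.22 to 11.92 in treated rats with a median of 11.62. It differed by -0.10 (SE 0.10, adjusted p = 0.885), and by -0.04 without D-penicillamine rat 4.

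The SD of Igf1 on the first probe set was 0.022 in vehicle rats (n = 4) and 0.21 in treated rats (n = 8), a ratio of 9.64. The median ratio over all probe sets was 1.28, and 0.309% had a larger one. On the second probe set the SDs were 0.096 and 0.21, a ratio of 2.22. This comparison of spreads was not tested, and an SD over 4 rats is imprecise. The treated SDs include D-penicillamine rat 4, the lowest on both probe sets, and the ratios were not taken without it. The deviations of the 2 probe sets correlated at 0.89 over the 12 rats.

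Igfals encodes the acid-labile subunit that holds insulin-like growth factor I and IGFBP-3 in the circulating complex. Vehicle rats 1 to 4 had 10.20, 9.94, 10.02 and 9.93, and treated rats ran from 9.47 in rat 4 to 10.13 in rat 3 with a median of 9.865. In 7 of 8 treated rats the value was below the vehicle mean, and in 5 it was below all vehicle rats. The difference was -0.19 (SE 0.10, 95% interval -0.41 to 0.03, adjusted p = 0.826). It was -0.13 without vehicle rat 1, -0.134 without D-penicillamine rat 4 and -0.076 with array weights.

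Of the binding proteins, Igfbp2, which is known to be higher in liver when growth hormone or feeding is low, was tight in the vehicle group and split to both sides in the treated group. Vehicle rats had 7.93, 7.86, 7.88 and 7.98. Treated rats ran from 7.69 in rat 6 to 8.23 in rat 2 with a median of 8.10, and 0 of 8 lay within the vehicle range, 6 being above it and 2 below. The difference was 0.14 (SE 0.09, 95% interval -0.05 to 0.33, adjusted p = 0.838). Its SD was 0.054 in vehicle rats and 0.20 in treated rats, a ratio of 3.66, and 6.08% of probe sets had a larger ratio. The treated SD was the larger one for 8 of the 13 member probe sets, against 66.8% of all probe sets. For Cish, Stat5b, both probe sets of Igfbp3 and 1 of Ghr it was smaller, with ratios of 0.92, 0.98, 0.68, 0.65 and 0.85.

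Igfbp4, which encodes a binding protein that restrains IGF action, had the smallest p of the members. Vehicle rats had 10.77, 10.97, 10.90 and 10.98, and treated rats ran from 10.53 in rat 5 to 10.90 in rat 6 with a median of 10.795. All 8 treated rats lay below the vehicle mean, and 5 of them within the vehicle range. The difference was -0.16 (SE 0.07, 95% interval -0.31 to 8.7e-04, unadjusted p = 0.0511 and adjusted p = 0.807 in limma). It ran from -0.20 without vehicle rat 1 to -0.125 without D-penicillamine rat 5.

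Igfbp3, which in rat liver is transcribed mainly by non-parenchymal cells, was at -0.08 on both probe sets (SE 0.10 and 0.09, adjusted p = 0.904 and 0.886). On the brighter one vehicle rats lay between 7.98 and 8.49 and treated rats between 8.07 and 8.47. All 8 treated rats lay within the vehicle range there, and 7 of 8 on the other probe set. Without vehicle rat 2, the lowest of the vehicle group, the differences were -0.19 and -0.16, and without vehicle rat 1 the second was -0.0079. Beside this, 7 of 10 Kupffer cell markers were measured and all 7 differences were positive, with a median of 0.12. Their mean log2 value ran from 8.24 to 8.47 in vehicle rats and from 8.34 to 8.53 in treated rats. Of the sinusoidal endothelial markers 7 of 11 were measured and 6 differences were negative (median -0.04), with means of 7.20 to 7.51 and 7.16 to 7.36. Of the stellate cell and fibroblast markers 11 of 11 were measured and 8 differences were negative (median -0.06), with means of 6.64 to 6.97 in vehicle rats and 6.68 to 6.89 in treated rats. No marker of these lists passed the threshold. At an unadjusted p under 0.05, 3 of 7 Kupffer cell markers were higher (2.68% of all probe sets), and 3 of 11 stellate cell markers, Acta2, Pdgfrb and Lum, were lower (3.48% of all probe sets). RMA gives no value of 0, so none of these markers was at 0, and their part in the Igfbp3 values was not tested.

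Among 12 pairs of members compared across rats, Igf1 went with Socs2 and with Igfals, but neither pair passed when all 45 pairs of the members were counted. The 12 pairs were chosen with earlier results of these data known, so their adjusted p is not independent evidence. Deviations from the group means were correlated over 12 rats, with permutations within the groups and adjustment over the 12 pairs. Each gene was taken by its brightest probe set alone, and the second probe set of Igf1 was not used. On the Igf1 probe set used, vehicle rats had an SD of 0.022, against 0.096 on the other. Igf1 and Socs2 correlated at r = 0.81 (permutation p = 0.00446, adjusted p = 0.0418) with Spearman's rho of 0.90 (p = 0.00234, adjusted p = 0.0281). Igf1 and Igfals correlated at r = 0.80 (permutation p = 0.00696, adjusted p = 0.0418) with a rho of 0.66 (p = 0.0330, adjusted p = 0.198). Without the 2 rats farthest from the median of Igf1, D-penicillamine rats 4 and 8, r was 0.69 and 0.75. Without D-penicillamine rat 4 alone r was 0.74 and 0.65, and neither pair passed (adjusted p = 0.241 for both). Within the 8 treated rats r was 0.88 and 0.86. Adjusted over all 45 pairs, the permutation p was 0.100 for Igf1 and Socs2 and 0.104 for Igf1 and Igfals. Of all probe sets, 1.93% were at least as far from 0 with Igf1 as Socs2 was, and 2.04% as Igfals was.

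Over all 45 pairs, a count added after the values were seen, 1 pair passed, the binding proteins Igfbp3 and Igfbp4, which went opposite ways. Their r was -0.82 (permutation p = 6.5e-04, adjusted p = 0.029) and their rho -0.85 (p = 0.0014, adjusted p = 0.053). This holds for the brighter probe set of Igfbp3 (1386881_at) alone. Its deviations correlated with those of the second Igfbp3 probe set at 0.66, and the second was not tried with Igfbp4. Without vehicle rats 2 and 3, the farthest from the median of Igfbp3, r was -0.96, and within the 8 treated rats it was -0.96. Without D-penicillamine rat 4 it was -0.80, and the pair did not pass (adjusted p = 0.089 by permutation).

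The other 10 of the 12 pairs did not pass. Ghr and Igf1 had r = 0.76 (permutation p = 0.0286, adjusted p = 0.115, rho 0.31, p = 0.370), but -0.10 without D-penicillamine rats 4 and 6, so that value rested on those rats. Igf1 and Igfbp2 went opposite ways at r = -0.62 (permutation p = 0.0971, adjusted p = 0.217, rho -0.36, p = 0.296), and at -0.85 without D-penicillamine rats 4 and 8. For Igfbp2 and Igfbp4 r was -0.55 (permutation p = 0.0968, adjusted p = 0.217, rho -0.51, p = 0.124), and -0.28 without D-penicillamine rats 2 and 6. The feedback inhibitors Socs2 and Cish hardly went together, at r = 0.18 (permutation p = 0.582, adjusted p = 0.641, rho 0.20, p = 0.530), or 0.39 without D-penicillamine rats 4 and 6. All points share the normalization of the arrays, and D-penicillamine rat 4, which was lowest for 5 of the 13 probe sets, also had the highest Stat3 of all rats, 9.42 against 8.13 to 8.53 in the other 11. What sets that rat apart was not tested.

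**Figure D4:**
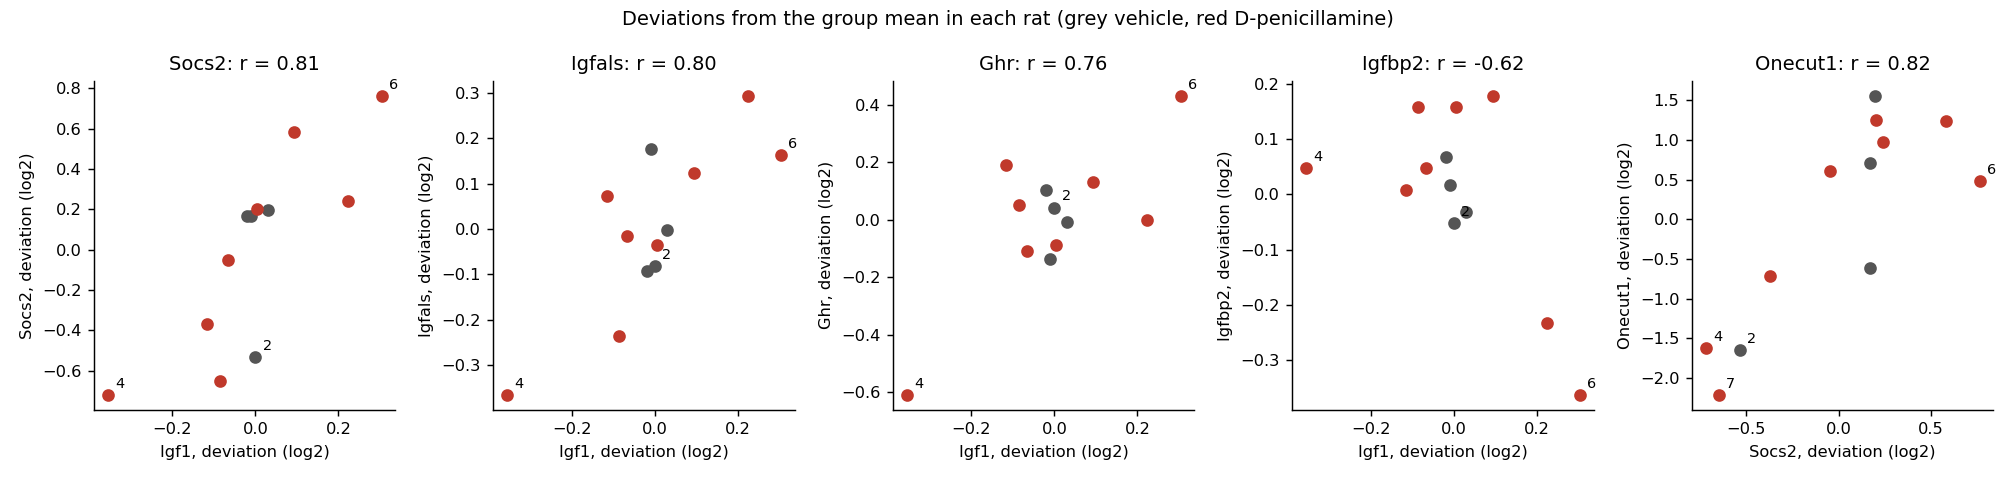
Deviation from the group mean (log2) in each of 12 rats, for Igf1 against Socs2, Igfals, Ghr and Igfbp2, and for Socs2 against Onecut1. Vehicle rats are grey and D-penicillamine rats red, with vehicle rat 2 and D-penicillamine rats 4, 6 and 7 numbered where the text names them. D-penicillamine rats 4 and 6 have the lowest and the highest Igf1 deviation.

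By the same measure, the 5 named genes most like Igf1 over the 12 rats were Pakap (r = 0.94), Krit1 (0.93), Fam76a (0.93), Ugt2b15 (0.93) and Ctbs (0.93). Those most like Socs2 were Ints13 (0.89), Rapgef4 (0.88), Ctsl (0.88), Ifgga2l1 (0.88) and Snx2 (0.87). For Igfbp2 they were Rbmx (0.90), Sh2d3c (0.88), Asz1 (0.87), Cfap77 (0.83) and Htr3a (0.82). These are the highest of the correlations with all named genes and are given as a description. Without D-penicillamine rat 4 the values for Igf1 lay between 0.86 and 0.89.

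The other genes of the pathway also gave no call. Of 106 genes on 5 lists 88 were measured, 0 passed the threshold in either direction, and 4 (4.55%) had an unadjusted p under 0.05 on their brightest probe set, against 6.16% of all probe sets. On the list of growth hormone receptor signalling, 13 of 32 measured genes were positive and 19 negative (median -0.04). Its smallest p-values were those of Socs7 at -0.15 (SE 0.07), the adaptor gene Sh2b1 at 0.145 (SE 0.07), Akt1 at 0.14 (SE 0.07) and the kinase gene Lyn at 0.15 (SE 0.08), each on 1 of its probe sets. Their other probe sets lay elsewhere, with Socs7 at 0.0050, Sh2b1 at 0.04, Akt1 at 0.02 and 0.015, and Lyn at -0.09. Stat5a, the close relative of Stat5b, was at -0.03 (SE 0.06), Socs1 at 0.07 (SE 0.04) and Socs3 at 0.03 (SE 0.06). Stat3 was at 0.14 (SE 0.17) and, on its other probe set, at 0.34 (SE 0.17), or at 0.012 and 0.21 without D-penicillamine rat 4. Without vehicle rat 3 the values of Akt1 and Lyn were 0.074 and 0.068.

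On the list of the wider IGF system 8 of 16 genes were positive and 8 negative (median 0.0031). Its smallest p was that of 1 probe set of Insrr, at 0.145 (SE 0.06, adjusted p = 0.781), with 8 treated rats above the vehicle mean. The other probe sets of Insrr were at -0.00375 and -0.00125. Ctsd was at 0.095 (SE 0.06), and the probe sets of Pappa2 were at -0.0675 and -0.07125. Igf1r, the receptor of insulin-like growth factor I, was at 0.13 (SE 0.06, adjusted p = 0.807), the clearance receptor Igf2r at 0.025 (SE 0.09) and the insulin receptor gene Insr at -0.05 (SE 0.07). Igfbp1, a binding protein that insulin suppresses, was at -0.35 (SE 0.50), and its within-group SD of 0.98 was larger than that of any member. Both rested on D-penicillamine rat 3 (6.11), without which the difference was 0.012 and the SD 0.52, below that of Cish (0.71) and level with that of Socs2 (0.52).

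Genes that differ between the sexes in rat liver under the growth hormone pattern were not called either. Of 10 measured male-biased genes 4 were positive and 6 negative (median -0.04), with Cyp2c11, the main male cytochrome P450, at -0.08 (SE 0.06). Cyp3a2 was at 0.31 (SE 0.09, adjusted p = 0.693), with all 8 treated rats above the mean of the vehicle group. Obp3, an alpha-2u-globulin gene, was at -0.505 (SE 0.18, adjusted p = 0.715), with 7 of 8 treated rats below that mean. Of 12 female-biased genes 6 were positive and 6 negative (median 0.0025). Among them Cyp2c12 was at -0.24 (SE 0.12, and -0.080 without vehicle rat 2) and Sult2a6 at 0.27 (SE 0.14). The prolactin receptor gene Prlr was at -0.01 (SE 0.08) and, on its other probe sets, at 0.04 and 0.16. The last list, compiled as other growth hormone-induced genes, had 13 of 18 genes positive (median 0.08). Its smallest p-values went both ways. The early response gene Egr1 was at -0.835 (SE 0.26, adjusted p = 0.693) and Myc at -0.25 (SE 0.10). Fos, also an early response gene, was at 0.22 (SE 0.11), and Cebpa, a liver transcription factor gene, at 0.33 (SE 0.16), each with 7 of 8 treated rats above the vehicle mean. Without vehicle rat 3, Myc was at -0.16 and Cebpa at 0.17. Fos was at 0.155 without D-penicillamine rat 4, and its other probe set was at -0.04 (SE 0.04). Of the other named genes of that list, Egfr was at -0.055 (SE 0.15) and, on its other probe set, at 0.0525 (SE 0.05). Onecut1 was at -0.01 (SE 0.69) and, on its other probe set, at 0.335 (SE 0.49). The sign of both Onecut1 values depended on single rats (-0.56 to 0.51 and -0.08 to 0.61 on leaving out each).

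**Figure D5:**
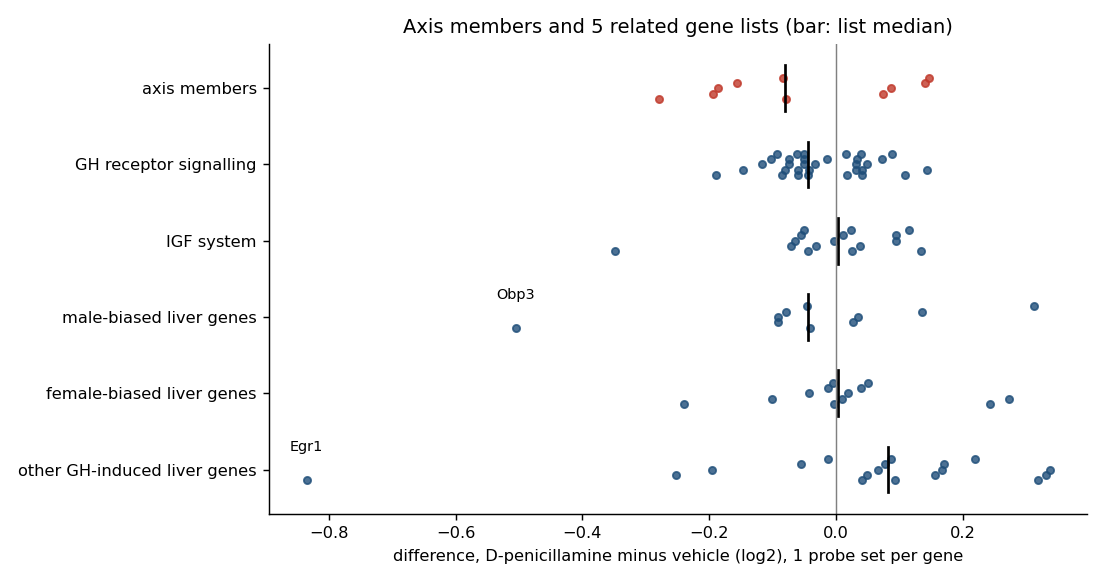
Difference between D-penicillamine and vehicle rats (log2) for each measured gene of the axis (red) and of 5 related lists (blue), 1 probe set per gene, with the median of each list as a black bar. Medians lie between -0.08 and 0.08, and the genes farthest from 0 are Egr1 and Obp3.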

How the data were processed

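Livers of 12 rats were profiled on 1 array each. The deposited table holds log2 values of 15923 probe sets, made by the authors with RMA per the submitters' processing notes. The 57 array controls were left out. Scan records, which hold no measurement, gave only chip lot, day and order of scanning. Names came from the array's annotation, updated by gene identifier to RefSeq GRCr8 symbols, and 12783 had 1 symbol, 312 several and 2771 none.

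D-penicillamine minus vehicle was fitted with limma 3.58.1 under R 4.3.3 (lmFit, eBayes, two-sided), with Benjamini-Hochberg adjustment over 15866 probe sets at 0.05, and the fit was tested on simulated data. Where 1 value per gene was needed, the probe set with the highest mean was used. Correlations used 100000 permutations within groups (numpy 2.4.6). Members, gene lists and pairs were chosen with earlier results of these data known. Named genes were all members, up to 4 genes of smallest p per list, 13 fixed genes, and the 5 genes most like Igf1, Igfbp2 and Socs2. The number of arrays limits the precision. Alternatives were each rat left out, median centring, quantile normalization on top of RMA, the brighter probe sets alone, a trended robust variance, array weights, a 3' minus 5' covariate, a replicate block, and 2 rats left out together.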

Additional observations from a re-analysis of the deposited data

Results flagged for a closer look

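In each of the 2 groups the lowest and the highest rat of 61 probe sets, those of all members and of the other named genes, was compared with the nearest rat by Dixon's ratio. Chance marks about 1 in 20 groups, and 10 of 122 were marked, of which 1 of 26 was in a member. That member was Socs2, where vehicle rat 2 had 5.23 and the next lowest vehicle rat 5.93. Stat3 was high in D-penicillamine rat 4 on both probe sets, at 9.42 against 8.48 for the next rat and at 9.22 against 8.45. Igfbp1 was low in D-penicillamine rat 3, at 6.11 against 8.47 for the next lowest treated rat.

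Vehicle rat 1 stood apart for 3 probe sets, with 1 probe set of Igf2r at 7.48 against 7.73, Cyp3a2 at 12.43 against 12.12 and 1 probe set of Obp3 at 9.65 against 10.66. D-penicillamine rat 1 was high for Ctsd (10.68 against 10.44) and for 1 probe set of Insrr (6.38 against 6.20), and D-penicillamine rat 8 was low for 1 probe set of Socs7 (5.22 against 5.41).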

How the results depend on the processing

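No member probe set passed under any alternative that was run. Over all probe sets the count ranged from 0 to 1 on leaving out each rat, the 1 being without D-penicillamine rat 1, and was 2 with array weights and 0 in the other settings. Where no probe set passed, no gene of the 5 lists did. Whether the probe sets called without D-penicillamine rat 1 or with array weights belong to those lists is not given here. A replicate block on the rat number, possible for 4 rats of each group, gave 0 calls, and same-numbered rats did not deviate together (r = 0.25, -0.16, 0.14 and -0.13). Signs of members turned for 3 probe sets. Ghr on 1373803_a_at ran from -0.14 to 0.0082 on leaving out each rat, the latter without D-penicillamine rat 4, and was 0.0057 without it and vehicle rat 3. Ghr on 1368924_at ran from -0.145 without vehicle rat 3 to 0.22, and was -0.053 with array weights, -0.185 with the 3' minus 5' covariate, -0.015 with the replicate block and -0.04 with vehicle rat 3 and D-penicillamine rat 4 both left out. Socs2 was at -0.031 without vehicle rat 2. The number of correlated pairs, 2, was 0 without D-penicillamine rat 4, 0 without it and vehicle rat 3, 2 without vehicle rat 3, 1 by Spearman's rho, and 1 when adjusted over all 45 pairs, where that 1 was Igfbp3 with Igfbp4. Correlations without D-penicillamine rat 4, or without both rats, and over all 45 pairs were added after seeing the data. The r of Ghr and Stat5b, -0.25, was -0.28 without vehicle rat 3, 0.14 without D-penicillamine rat 4 and 0.145 without both. The cause of these changes was not tested. The members above the 90th percentile of spread numbered 8 without both rats and 4 against probe sets of like level, in place of 7. Array weights moved Igfals to -0.076, Igf1 to -0.12, Stat5b to 1.0e-04 and Socs2 to 0.35, and the replicate block moved Cish to -0.03, with no call in any. At an unadjusted p under 0.05 in limma, the 0 of 13 members became 3 without D-penicillamine rat 3 and 3 without D-penicillamine rat 6. It was 1 without vehicle rat 1, without D-penicillamine rat 4, with further quantile normalization or with array weights, and 0 in the other settings. The share of all probe sets at that p was not taken in those settings.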

Other observations

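Outside the members, the genes of this pathway that varied most between rats were Onecut1 and Igfbp1, both given after their values were seen. Onecut1 had the largest SD within groups of all 15866 probe sets at 1.37 on its brighter probe set, and the 6th largest at 0.97 on the other. Vehicle rats 1 to 4 had 7.48, 6.45, 9.65 and 8.80 on the brighter one, and treated rats ran from 5.87 in rat 7 to 9.33 in rat 1, so the 12 livers spanned a 13.7-fold range that both groups shared. Igfbp1 had the 5th largest SD at 0.98. Its vehicle rats had 8.24, 9.38, 8.96 and 9.36, and its treated rats ran from 6.11 in rat 3 to 9.63 in rat 7, an 11.5-fold range. Both rested on rat 3 of the treated group: the other 11 rats ran from 8.24 to 9.63, a 2.62-fold range, with an SD of 0.52, the 48th largest.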
